A study of Mus musculus with 8 samples.

Results

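Keratin-associated proteins are small structural proteins, encoded by the Krtap genes, and they were followed here through 4 sites of the mouse oral lining. The members were all single-gene entries whose symbol begins with Krtap, plus 7 genes of the same kind that carry only a Gm name, kept where at least 1 unique molecular identifier (UMI, a tag that marks 1 captured RNA molecule) was counted. This gave 48 members of 33136 single-gene entries. The GENCODE annotation of the GRCm38 mouse genome lists 65 such genes, and 17 of them had no UMI in any sample.

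Keratin-associated proteins are best known from the hair shaft, where they form the matrix between the hair keratin filaments and crosslink them through cysteine bonds. The family is numbered by sequence and is usually sorted into high-sulfur, ultrahigh-sulfur and high-glycine-tyrosine classes. Hair-type keratins are also known from the filiform papillae, the keratinised cones that cover the upper surface of the tongue.

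The samples were 8 tissue blocks from wild-type C57BL/6J mice, 2 replicates each of dorsal tongue (the upper surface), ventral tongue (the underside), buccal mucosa (the cheek lining) and hard palate. All groups share that genotype and strain, and age is not given in the labels. Each block was cut into 20 serial sections of 14 µm, and the RNA of every section was barcoded and counted at its 3′ end by CEL-seq2, the approach known as tomo-seq. Whether a replicate is another animal is not stated in the labels. A p-value here therefore sets a difference against the spread between these samples, and that spread may be technical. A sample held 7830471 to 26376536 UMIs, and 6 of the 160 sections held fewer than 100000. Levels are given as CPM, the UMIs of a gene per 1000000 UMIs of the same sample or section, and a tissue section mixes cells, so fewer cells of a type and less RNA per cell cannot be told apart.

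Buccal mucosa replicate 2 stood apart from the other libraries. The summed level of 8 keratinocyte markers was 342 CPM in it and 8020 to 14937 CPM in the other 7 samples, while 8 skeletal muscle markers reached 32872 CPM and 8 salivary gland markers 3207 CPM. Its 8 inner root sheath markers, which label the sheath around a growing hair, summed to 101 CPM against 0.948 to 4.99 CPM elsewhere. Of these 8, 3 (Krt26, Krt72 and Krt74) had no UMI in it. The counts of members called below are therefore also given without each buccal sample in turn. For counts with a sample left out, the share of all genes called is not given. Such a count does not show whether calls changed more for members than for other genes.

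The promoters of 4 members are shown first: those of the leading genes of dorsal tongue and, beside them, that of a gene almost silent there, since TATAAA was common to most member promoters of both kinds but not to all. Each window is the 250 bases before the annotated start, 5′ to 3′ on the gene's strand, from the RefSeq annotation of GRCm38.p6. Krtap13, Krtap3-3 and Krtap3-1 were the 3 most abundant members in dorsal tongue, and Krtap8-1, a high-glycine-tyrosine gene chosen after its values were seen, was almost silent there. Capitals mark TATAAA, the core of the TATA box, and TTTATNA, a motif of the type bound by the hair regulator HOXC13, on either strand.
Krtap13: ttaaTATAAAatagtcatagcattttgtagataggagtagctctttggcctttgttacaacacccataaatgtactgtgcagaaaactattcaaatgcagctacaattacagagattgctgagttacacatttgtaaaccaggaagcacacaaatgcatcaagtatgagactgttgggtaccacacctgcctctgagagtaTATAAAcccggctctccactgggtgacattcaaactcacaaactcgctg
Krtap3-3: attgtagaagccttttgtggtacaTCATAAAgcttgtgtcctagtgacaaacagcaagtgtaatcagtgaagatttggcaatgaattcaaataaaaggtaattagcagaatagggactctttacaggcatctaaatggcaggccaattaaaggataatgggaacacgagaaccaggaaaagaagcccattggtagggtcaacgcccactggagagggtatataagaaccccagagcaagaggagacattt
Krtap3-1: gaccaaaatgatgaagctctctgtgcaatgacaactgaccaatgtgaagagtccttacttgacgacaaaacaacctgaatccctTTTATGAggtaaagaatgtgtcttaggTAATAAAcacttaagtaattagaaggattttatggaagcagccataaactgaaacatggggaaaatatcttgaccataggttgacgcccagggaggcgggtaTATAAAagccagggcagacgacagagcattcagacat
Krtap8-1: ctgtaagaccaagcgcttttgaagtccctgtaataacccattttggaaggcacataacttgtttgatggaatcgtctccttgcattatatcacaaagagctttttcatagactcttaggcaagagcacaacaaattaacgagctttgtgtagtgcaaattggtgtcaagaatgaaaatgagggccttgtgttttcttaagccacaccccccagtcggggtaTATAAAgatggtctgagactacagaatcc
These windows lie on the minus strand at chr16:88751629-88751878, chr11:99550864-99551113, chr11:99566631-99566880 and chr16:89487953-89488202. TATAAA stood 246 and 49 bases before the start in Krtap13, 37 in Krtap3-1 and 29 in Krtap8-1, counted to the first base of the match. It was not among the letters of the Krtap3-3 window, which held the similar letters TATATAAG near the start. Only exact matches were marked, so this does not mean that Krtap3-3 lacks a TATA box.

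A promoter was found for 44 of the 48 members. TATAAA was present on either strand in 30 of 33 promoters of members with at least 10 UMIs in a dorsal tongue sample (90.9%) and in 9 of 11 promoters of the other members (81.8%). Among all 32851 promoters of the table the share was 12.4%. Most promoters thus carried the motif above and below the line of 10 UMIs. That line does not separate abundant from nearly absent members, since the first set also holds rare genes such as Krtap5-5 (0.283 and 0.64 CPM in dorsal tongue). TTTATNA was present in 12 of the 33 (36.4%), in 5 of the 11 (45.5%) and in 12.8% of all promoters, and its match overlapped a TATAAA match in 3 and 1 of the member promoters. CTTTGA, the core bound by LEF and TCF factors, was present in 6 of the 33 (18.2%), 4 of the 11 (36.4%) and 13.8% of all. A match is a description of letters and not of a bound site.

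Keratin-associated protein RNA was concentrated in dorsal tongue. The members held 417992 UMIs in dorsal tongue replicate 1, which was 1.97% of all UMIs of that sample, and 272600 in replicate 2, which was 1.34%. In ventral tongue they held 13496 UMIs (0.0834%) and 26503 UMIs (0.129%). Buccal mucosa replicate 1 had 2468 member UMIs (0.0146%), and the hard palate samples had 2806 (0.0158%) and 4435 (0.0168%). Buccal mucosa replicate 2 had 20, or 0.000255% with a 95% Wilson interval of 0.000165% to 0.000395%, which covers counting error only. Both dorsal samples lay more than 10 times above every other sample, and the ventral samples lay above the buccal and palate samples. The number of members with a UMI was 41 and 43 in dorsal tongue, 32 and 40 in ventral tongue, 26 and 13 in buccal mucosa and 17 and 15 in hard palate.

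**Figure D1:**
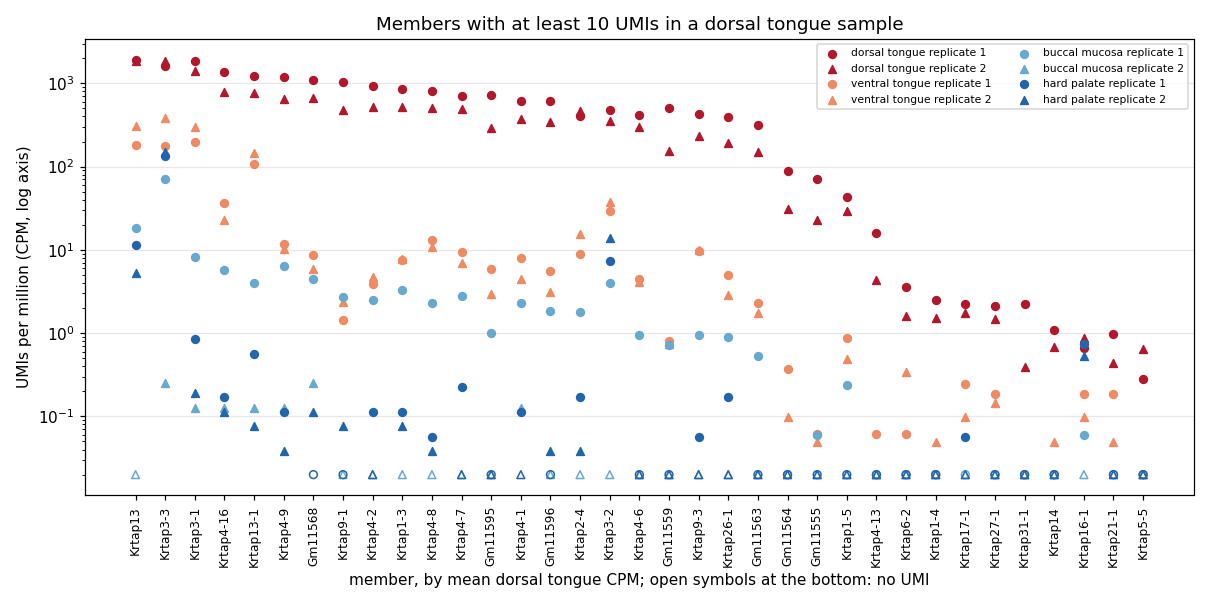
CPM, on a log axis, of the 35 members with at least 10 UMIs in a dorsal tongue sample, with 1 symbol per sample (circle replicate 1, triangle replicate 2; open symbols at the bottom mark no UMI). The dorsal tongue symbols lie highest for nearly every member, and Krtap3-3 has the most hard palate signal, at 136 and 148 CPM.

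Of the 48 members, 35 had a higher CPM in both dorsal tongue samples than in any of the 6 other samples, against 2.3% of all 33545 rows with a UMI. In dorsal tongue, 22 members exceeded a mean of 100 CPM and 4 exceeded 1000 CPM. By contrast, 13 members had fewer than 10 UMIs in each dorsal tongue sample, and 10 had fewer than 10 UMIs over the whole series.

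The high-sulfur class held the 3 most abundant members. Krtap13, on chromosome 16, was counted at 1924 and 1847 CPM in dorsal tongue, 179.9 and 305.9 CPM in ventral tongue, 18.3 and 0 CPM in buccal mucosa and 11.6 and 5.35 CPM in hard palate. Krtap3-3, on chromosome 11, was counted at 1631 and 1838 CPM in dorsal tongue, 175 and 388 CPM in ventral tongue, 70.1 and 0.255 CPM in buccal mucosa and 136 and 148 CPM in hard palate. Krtap3-1, from the same cluster, was counted at 1835 and 1413 CPM in dorsal tongue, 197 and 295 CPM in ventral tongue, 8.12 and 0.128 CPM in buccal mucosa and 0.845 and 0.19 CPM in hard palate. None of the 3 overlapped between dorsal tongue and any other site, and only Krtap3-3 stayed above 100 CPM in hard palate. Their dorsal means of 1886 ± 54.5, 1734 ± 147 and 1624 ± 298 CPM (SD, n = 2) lay within 1 SD of Krtap3-1 of each other.

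Krtap4-16 led the ultrahigh-sulfur class, whose members are the most cysteine-rich. It was counted at 1364 and 784 CPM in dorsal tongue, 36.3 and 22.8 CPM in ventral tongue, 5.81 and 0.128 CPM in buccal mucosa and 0.169 and 0.114 CPM in hard palate. The palate values rest on 3 UMIs in each sample. Of the same class, Krtap9-1 reached 1041 and 479 CPM in dorsal tongue but 1.42 and 2.34 CPM in ventral tongue, a level that did not stand above the 2.73 CPM of buccal mucosa replicate 1. Krtap4-9, Krtap4-2, Krtap4-8 and Krtap4-7 ran from 698 to 1178 CPM in dorsal tongue replicate 1 and from 495 to 648 CPM in replicate 2.

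The other leading members had dorsal levels of the same order. Krtap13-1 reached 1207 and 765 CPM in dorsal tongue and 108 and 145 CPM in ventral tongue. Gm11568, the most abundant Gm-named member, had 1104 and 663 CPM in dorsal and 8.65 and 5.85 CPM in ventral tongue. The dorsal levels were 864 and 513 CPM for Krtap1-3, 402 and 460 CPM for Krtap2-4 and 391 and 193 CPM for Krtap26-1. Krtap2-4 and Krtap3-3 were the 2 members that were lower in dorsal replicate 1 than in replicate 2 among the 26 with at least 50 UMIs in both. Over those 26 the ratio of replicate 1 to replicate 2 had a median of 1.71 and ran from 0.874 for Krtap2-4 to 3.63 for Krtap4-13.

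The high-glycine-tyrosine class was close to absent. Its 16 annotated genes (subfamilies 6, 7, 8, 19, 20, 21 and 22) gave 177 UMIs over all samples, 147 of them in dorsal tongue, against 337162 dorsal UMIs of the high-sulfur class and 247052 of the ultrahigh-sulfur class. Krtap6-2 contributed 75 and 33 UMIs and Krtap21-1 was the other member with at least 10 UMIs in a dorsal sample. Of the 16 genes, 7 had no UMI anywhere, among them Krtap6-3, Krtap20-2 and Krtap19-1 to Krtap19-4. These 16 genes lie on chromosome 16, as do the abundant Krtap13, Krtap13-1 and Krtap26-1.

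The few remaining subfamilies were rare. In dorsal tongue Krtap17-1 was at 2.26 and 1.72 CPM, Krtap27-1 at 2.12 and 1.48, Krtap31-1 at 2.26 and 0.394, Krtap14 at 1.08 and 0.689 and Krtap5-5 at 0.283 and 0.64 CPM. Krtap16-1 was the one exception to the dorsal pattern among members with 10 UMIs. It was counted at 14 and 18 UMIs in dorsal tongue and at 13 and 14 UMIs in hard palate, so the 2 sites overlapped in CPM. In ventral tongue it had 3 and 2 UMIs, and in buccal mucosa 1 and 0.

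By chromosome, 27 members lie on chromosome 11 between positions 99550130 and 99993994, and 16 on chromosome 16. All 27 on chromosome 11 had at least 10 UMIs in a dorsal tongue sample, against 7 of the 16 on chromosome 16. Members were kept only with a UMI, and the annotation lists 30 genes on chromosome 11 and 25 on chromosome 16. Those on chromosome 11 held 82.1% and 79.04% of the member UMIs in dorsal tongue. They held 64.8% and 64.7% in ventral tongue and 92.2% and 96.7% in hard palate. Chromosome 16 held 17.9% and 20.9% in dorsal tongue and 35.2% and 35.3% in ventral tongue. The 5 members on chromosomes 1, 7 and 10 gave at most 20 UMIs in a sample.

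The make-up of the family differed between sites. Subfamily 3 made up 20.03% and 26.9% of the member UMIs in dorsal tongue, 48.04% and 55.8% in ventral tongue, 56.3% in buccal mucosa replicate 1 and 91.02% and 96.1% in hard palate. Subfamily 13 made up 15.9% and 19.5% in dorsal tongue, 34.5% and 34.9% in ventral tongue and 7.66% and 3.22% in hard palate. Subfamily 4 went the other way, with 30.5% and 26.99% in dorsal tongue, 10.5% and 4.98% in ventral tongue and 0.499% and 0.113% in hard palate. For these 3 subfamilies the dorsal and ventral samples did not overlap, with 2 samples a site and no test. Buccal mucosa replicate 2 is left out of these shares because it had only 20 member UMIs.

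**Figure D2:**
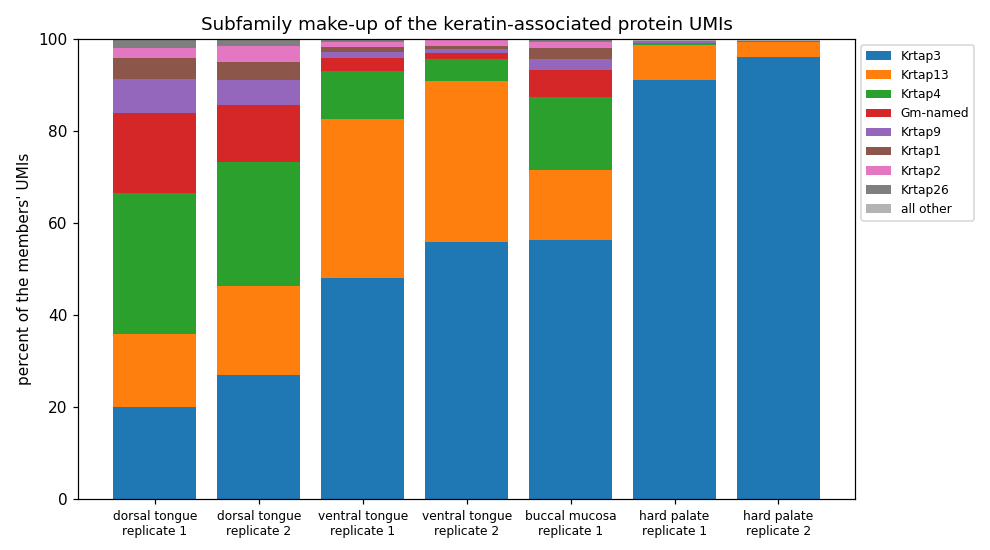
Percent of the members' UMIs from each subfamily (stacked bars, 7 samples; buccal mucosa replicate 2, with 20 member UMIs, is not drawn). Subfamily 3 fills 20.03% to 26.9% of the dorsal tongue bars and over 90% of the hard palate bars.

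Within dorsal and ventral tongue the same split showed in single genes. Among the 26 members with at least 50 UMIs in both dorsal samples, the 5 of subfamilies 3 and 13 had dorsal means 6.16 to 12.5 times their ventral means. The other 21 had ratios of 33.6 to 853. The UMI count of a gene in a section cannot pass 4096, which compresses differences of the most abundant members: the highest was 3369, for Krtap13, and 9 members passed 2048 in some section. With the deposited transcript estimates, which correct for this, the 5 ratios were 8.47 to 13.7 and the other 21 were 36.8 to 886.

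Krtap3-3 carried the palate signal. It held 85.9% and 87.8% of the member UMIs of the hard palate samples, with 2409 and 3895 UMIs. Its neighbour Krtap3-2 had 130 and 362 UMIs there, or 7.33 and 13.7 CPM, and Krtap3-1 had 15 and 5 UMIs. Krtap3-1 and Krtap3-3 thus had similar levels in dorsal tongue and lay over 100 times apart in hard palate. Krtap13 gave another 205 and 141 UMIs, and without subfamily 3 the median section of hard palate held 5.58 and 3.71 CPM of member UMIs.

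**Figure D3:**
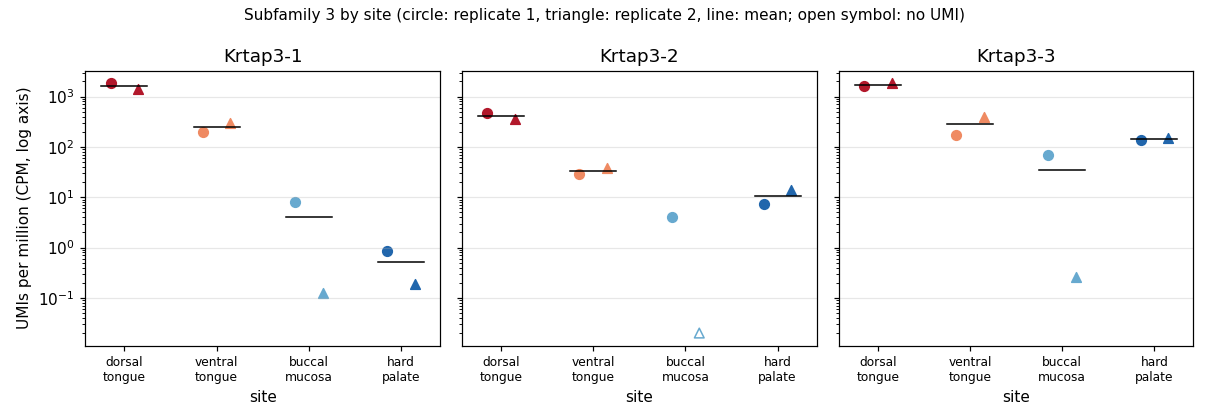
CPM (log axis) of Krtap3-1, Krtap3-2 and Krtap3-3 in each sample by site (circle replicate 1, triangle replicate 2, line the mean; an open symbol marks no UMI). Krtap3-3 is at 136 and 148 CPM in hard palate, where Krtap3-1 is below 1 CPM.

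Dorsal tongue was then compared with the mean of the other 3 sites in 1 edgeR fit of all 8 samples, with p-values adjusted over all 18609 genes that passed the filter on low counts. Of the 48 members, 32 passed that filter, which genes high in 1 site pass more easily, so the count below describes those 32 only. The quasi-likelihood test called 27 of them higher in dorsal tongue at an adjusted p under 0.05 and 0 lower, against 0.795% of all genes called higher and 0.043% lower. Krtap4-16 was higher by 9.06 ± 0.92 (log2, SE, adjusted p = 0.0097), Krtap13-1 by 8.05 ± 0.90 (0.0142), Krtap3-1 by 7.89 ± 1.01 (0.0235) and Krtap3-2 by 5.75 ± 0.82 (0.0346). The 5 that did not pass were Krtap13 (6.39 ± 1.17, adjusted p = 0.0817), Krtap3-3 (4.20 ± 1.15, 0.26), Krtap6-2 (7.06 ± 0.83, 0.0503), Krtap14 (6.43 ± 0.81, 0.061) and Krtap16-1 (2.50 ± 0.52, 0.122). Krtap13 and Krtap3-3 thus missed the threshold although neither overlapped between dorsal tongue and the other samples.

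The count depended on single libraries. It was 0 without either ventral tongue replicate, 3 and 17 without dorsal tongue replicate 1 and 2, and 5 and 3 without hard palate replicate 1 and 2. Without buccal mucosa replicate 1 or 2 it was 35 and 32, and the fit then tested other sets of genes.

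Pairs of sites were compared in the same fit. Against hard palate 28 of the 32 were higher in dorsal tongue, against 3.63% of all genes, and the exceptions were Krtap3-2 (5.70 ± 1.28, adjusted p = 0.0618), Krtap13 (8.20 ± 2.03, 0.0789), Krtap3-3 (4.02 ± 1.73, 0.29) and Krtap16-1 (0.69 ± 0.58, 0.612). This count fell to 3 and 2 without hard palate replicate 1 and 2, and it was 32 without either buccal mucosa replicate. Against buccal mucosa 4 of the 32 were called, namely Gm11555, Krtap1-5, Krtap9-3 and Gm11563, against 0.199% of all genes, and leaving out buccal mucosa replicate 1 or 2 raised the count to 31 and 25. These 4 names were picked by their calls. The count was 0 without any 1 replicate of the other 3 sites, and 0 with the replicate block.

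Dorsal against ventral tongue gave 0 of 32 by edgeR, where 0.00537% of all genes were called higher. At an unadjusted p under 0.05 there were 29, against 2.68% of all genes, and DESeq2 called 21, against 0.586%. Without buccal mucosa replicate 1 or replicate 2, neither of which is in this comparison, edgeR called 23 in each case. All samples share 1 estimate of the spread in this fit. Same-numbered dorsal and ventral samples were not paired in it, although their replicate differences correlated at 0.545. The fit of Krtap13 gave 3.06 ± 1.60 and that of Krtap4-16 gave 5.26 ± 1.26 on the log2 scale, with adjusted p of 0.93 and 0.571.

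Ventral tongue exceeded hard palate for 16 of the 32 members, against 5.99% of all genes. Krtap13-1 was higher by 8.98 ± 1.56 (edgeR, adjusted p = 0.0197) and Krtap3-1 by 9.22 ± 1.76 (0.0268), while Krtap3-3 differed by 1.28 ± 1.56 (0.678). The count was 0 without either replicate of hard palate or ventral tongue and 1 without either dorsal tongue replicate. Without buccal mucosa replicate 1 and 2 it was 23 and 24.

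No member passed between ventral tongue and buccal mucosa by edgeR, where 0% of genes were called higher. At an unadjusted p under 0.05 there were 16 members, against 3.89% of all genes, and DESeq2 called 8, against 0.752%. EdgeR called 21 without buccal mucosa replicate 1 and 0 without replicate 2, the one that stood apart. None passed between buccal mucosa and hard palate by edgeR, where 4.96% of genes were called higher and 1.24% lower. At an unadjusted p under 0.05 there were 17 members higher, against 16.8% of all genes, and 1 lower, against 9.52%. DESeq2 called 15 higher, against 10.5%. The median fitted difference of the 32 was 3.75 (log2) in the direction of buccal mucosa, although the members' summed share of UMIs was lower in both buccal samples than in both hard palate samples. Without buccal mucosa replicate 1 and 2, edgeR called 3 and 15 there.

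Through the sections of dorsal tongue the members fell together. Summed over members, replicate 1 held 36966 CPM in section 1, 39816 in section 3, 20881 in section 10 and 9064 in section 20. Replicate 2 held 26616 CPM in section 1, 15490 in section 10 and 7390 in section 20. Replicate 1 was above replicate 2 in 19 of the 20 sections, section 15 being the exception. Section 15 of replicate 1 stood apart at 4430 CPM between neighbours at 13718 and 10392, with 883293 UMIs of depth. Section 11 of replicate 2 held 477 CPM at a depth of 14671 UMIs, with 15490 and 14674 CPM on either side. The labels give the section numbers and do not say which end was the surface.

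**Figure D4:**
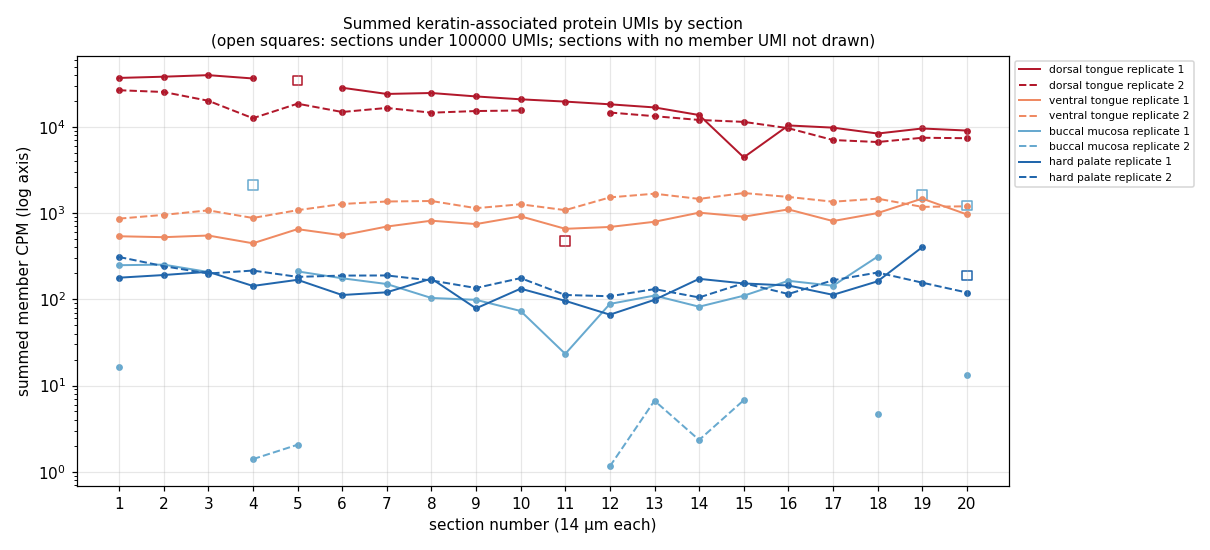
Summed member CPM (log axis) by section number, 1 line per sample (solid replicate 1, dashed replicate 2; open squares mark sections under 100000 UMIs, and sections with no member UMI are not drawn). The dorsal tongue lines fall from 36966 and 26616 CPM in section 1 to 9064 and 7390 CPM in section 20. The ventral tongue lines reach their highest values late, in section 19 of replicate 1 and section 15 of replicate 2.

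The fall was shared by nearly all abundant members. Krtap13 went from 2776 CPM in sections 1 to 10 to 1296 CPM in sections 11 to 20 of replicate 1, and from 2389 to 1383 CPM in replicate 2. Krtap4-16 went from 2028 to 874 CPM and from 1054 to 552 CPM. Gm11555 went from 121 to 34.8 CPM and from 31.3 to 15.99 CPM. Both replicates of each gene fell, and the fall was steeper in replicate 1.

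An edgeR fit of 16 libraries, the 2 section ranges of each sample with the sample as a block, called 26 of 32 tested members higher in sections 1 to 10 of dorsal tongue and 0 lower, against 2.03% of all 17905 genes higher and 4.57% lower. The median change of the 32 was 1.29 on the log2 scale, and that of all genes was -0.04. Krtap13 changed by 1.04 ± 0.24 (adjusted p = 0.0365), Krtap3-3 by 1.02 ± 0.17 (0.0113), Krtap4-16 by 1.17 ± 0.13 (0.0069), Krtap26-1 by 1.41 ± 0.21 (0.0117) and Gm11555 by 1.51 ± 0.23 (0.0113). The 6 that did not pass, Krtap1-4, Krtap14, Krtap6-2, Krtap27-1, Krtap17-1 and Krtap31-1, were rare genes with changes of 0.73 to 1.87. The count was 0 without either dorsal tongue replicate, and 28 and 26 without buccal mucosa replicate 1 and 2.

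Centres of the section profiles, the mean section number weighted by CPM, showed how closely the members ran together. The centre of all members was 7.64 in replicate 1 and 8.41 in replicate 2. Among the 26 members with at least 50 UMIs in both samples, Gm11555 had the lowest mean centre (6.72 and 7.99) and Krtap3-3 the highest (8.21 and 8.52). Over the 325 pairs of these members the median Spearman correlation across 19 deep sections was 0.974 in replicate 1 and 0.939 in replicate 2, with lowest values of 0.814 and 0.344. These correlations share library and depth, and they describe the 2 samples only.

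Ventral tongue ran in the opposite direction. The summed level was 662 CPM in sections 1 to 10 and 944 CPM in sections 11 to 20 of replicate 1, and 1147 and 1440 CPM in replicate 2. Krtap13-1 went from 77.9 to 127 CPM and from 128 to 164 CPM. Krtap3-3 barely moved, at 166 and 181 CPM in replicate 1 and 380 and 395 CPM in replicate 2. In the same edgeR fit 7 of the 32 were lower in sections 1 to 10 of ventral tongue and 0 higher, against 10.6% of all genes lower and 7.58% higher. Only 22 of the 32 had at least 3 UMIs in each section range of both ventral samples. Others, such as Krtap31-1 with 0 and Gm11555 with 1 UMI in each ventral sample, could hardly be called in this test or in the next. The 7 were Krtap4-16 (-0.63 ± 0.15, adjusted p = 0.0178), Krtap13-1 (-0.61 ± 0.15, 0.0198), Krtap1-3, Krtap9-3, Krtap26-1, Krtap4-1 and Krtap3-2. The count was 0 without ventral tongue replicate 1, 1 without replicate 2 and 4 without hard palate replicate 2, and 7 and 11 without buccal mucosa replicate 1 and 2.

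The difference between both tongue surfaces in this change was tested directly. Of the 32 members, 8 changed more towards low section numbers in dorsal than in ventral tongue, against 0.0949% of all genes. Krtap4-16 differed by 1.80 ± 0.20 (edgeR, adjusted p = 0.0103) and Krtap13-1 by 1.86 ± 0.21 (0.0103). Krtap13 (1.68 ± 0.35, 0.184) and Krtap3-3 (1.19 ± 0.24, 0.148) did not pass. The count was 0 without dorsal tongue replicate 1 or either ventral tongue replicate, 4 without dorsal tongue replicate 2, and 13 to 17 without 1 replicate of buccal mucosa or hard palate. Against the mean of the other 3 sites no member passed by edgeR, where 0% of genes were called higher, nor without either buccal mucosa replicate. At an unadjusted p under 0.05 there were 13, against 1.81% of all genes, and DESeq2 called 3, against 0.0726%. Many members had few UMIs outside the tongue: buccal mucosa replicate 2 held 20 member UMIs in all, and Gm11559 had 0 in both hard palate samples. A change over the sections could barely be estimated for them there, so the lack of edgeR calls decides little.

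**Figure D5:**
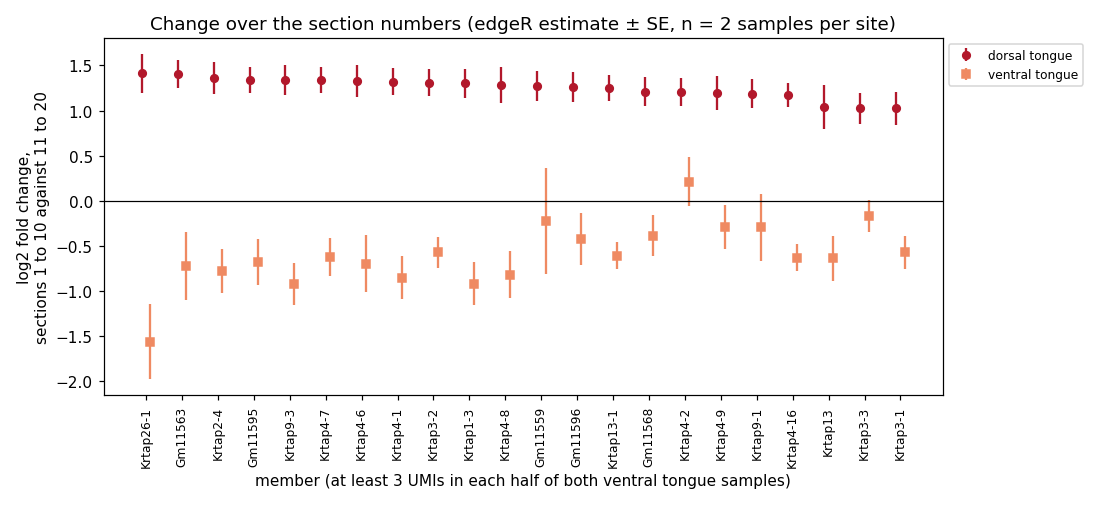
Log2 fold change from sections 11 to 20 to sections 1 to 10 in dorsal (circles) and ventral tongue (squares), edgeR estimate ± SE, for the 22 members with at least 3 UMIs in each section range of both ventral samples. All 22 dorsal points lie above 0, and 21 of the ventral points lie below it, Krtap4-2 being the exception at 0.21 ± 0.27.

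Markers of other cells moved over the same sections. The 8 keratinocyte markers summed to 12226 and 13730 CPM in sections 1 to 10 of dorsal tongue and to 10422 and 10653 CPM in sections 11 to 20. In ventral tongue they went from 11319 to 5915 and from 9792 to 7342 CPM, so they were lower in the sections where the summed member level was higher. The 8 skeletal muscle markers were higher in sections 11 to 20 in all 4 tongue samples, going from 9868 to 15782 CPM in sections 1 to 10 up to 14512 to 20800 CPM in sections 11 to 20. All markers of both lists were detected in every one of these samples. The 5 filiform papilla markers (Krt84, Krt36, Krt6b, Krt16 and Tchh) went from 12946 to 9671 and from 14723 to 10481 CPM in dorsal tongue. In ventral tongue they went from 6505 to 4274 and from 5581 to 5153 CPM. Krt36 held 265 and Krt84 373 of the 5143 CPM of ventral replicate 1, so Krt6b and Krt16 carried most of that sum. The list also summed to 8159 and 6279 CPM in hard palate, where Krt36 held 6.14 and 1.97 CPM. The sum therefore does not show how Krt36 and Krt84 changed. The 6 adipocyte markers went from 204 to 668 and from 247 to 884 CPM in dorsal tongue, and from 458 to 1449 and from 700.1 to 1152 CPM in ventral tongue, with 2 of them at 0 in replicate 1 of each. The part of cell make-up in the members' change was not tested.

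In the sites with little signal, shallow sections carried some of it. In buccal mucosa replicate 1 the 3 sections under 100000 UMIs held 167 of the 2468 member UMIs at 1541 CPM, while its 17 deeper sections held 137 CPM with a range of 23.3 to 313. In hard palate the deeper sections ran from 66.3 to 403 CPM in replicate 1 and from 105 to 310 CPM in replicate 2. Leaving out the shallow sections in the whole series changed no sign of a member's site difference. In buccal mucosa replicate 2 the 20 UMIs were spread over 13 members, and section 1 held 6 of them, from Krtap8-1, Krtap11-1 and Krtap7-1. Sections 1 to 4 of that sample also held 335 of its 341 Krt25 UMIs and 231 of its 232 Krt71 UMIs, both inner root sheath keratins.

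The hair keratins, the filament partners of these proteins in the hair shaft, were also concentrated in dorsal tongue. Krt36 was counted at 2340 and 2544 CPM in dorsal tongue and 265 and 556 CPM in ventral tongue, and Krt84 at 2194 and 2600 CPM and 373 and 751 CPM. Krt87 (605 and 581 CPM) and Krt81 (567 and 527 CPM) were lower. Of 16 hair keratins listed, 13 were tested, and 10 of these were higher in dorsal tongue than in the mean of the other sites, against 0.795% of all genes, while Krt36 (6.59 ± 1.05, adjusted p = 0.0511), Krt84 (5.22 ± 1.07, 0.118) and Krt32 (1.33 ± 1.39, 0.851) did not pass. Over the sections 10 of 13 were higher in sections 1 to 10 of dorsal tongue, against 2.03% of all genes, Krt84 among them (0.68 ± 0.14, 0.0202) and Krt36 not (0.74 ± 0.35, 0.252).

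Other hair shaft genes were mixed. Of 20 listed regulators and partners 17 were tested by site, with a median of 0.85 on the log2 scale against 0.02 for all genes, and 2 were called higher, against 0.795% of all genes: Hoxc13 (5.99 ± 0.61, edgeR, adjusted p = 0.0097), a homeobox regulator of hair keratins, and Gprc5d (7.94 ± 0.70, 0.0106), a hair-cortex receptor, both named after their values were seen. Lef1, a transcription factor of the Wnt pathway and named on the same ground, missed the threshold (2.85 ± 0.46, 0.0547). Tgm3, a transglutaminase that crosslinks keratinised layers, was the most abundant. It held 3300 and 3523 CPM in dorsal tongue, and 2245 to 3216 CPM in 5 of the 6 other samples. Its highest section count was 4070, close to the ceiling of 4096, so differences in its level are compressed and its fold is no measure of how far the sites differ. Sprr1a, a cornified envelope protein, was lower in dorsal tongue (375 and 443 CPM) than in ventral tongue (2245 and 1326 CPM). Neither passed the test of dorsal tongue against the mean of the other sites (Tgm3 0.88 ± 1.28, adjusted p = 0.905; Sprr1a -1.33 ± 1.45, 0.863). The count for both lists together, 12 of 30 tested, was 1 without either ventral tongue replicate, 7 without dorsal tongue replicate 1, and 24 and 17 without buccal mucosa replicate 1 and 2. By section, 12 of both lists passed, 0 without either dorsal tongue replicate, and 23 and 18 without buccal mucosa replicate 1 and 2.

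The genes most like the members over all 160 sections were ranked by the Spearman correlation with the summed member CPM, among 15058 genes with at least 200 UMIs. The highest values were 0.970 for Krt84, 0.959 for 2310034C09Rik on chromosome 16 and 0.941 for Krt36. Within the 38 deep dorsal sections alone the values were 0.609, 0.966 and 0.806. The UMI counts of Krt84 and Krt36 came near the ceiling in some section, and the effect of this on their values was not tested. The points share sample, depth and site, so the values are descriptions.

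Sequence similarity limits some single members. Of the last 400 bases of each gene's transcripts, 13 members shared at least 1 word of 50 bases with another gene, and only Krtap4-13 shared more than 50% of its words (96.3%, with Gm11554 and Gm11569). The counts of Krtap4-13 are therefore uncertain. Krtap14 and Krtap15 overlap on opposite strands, and how the counting used the strand is unknown here.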

How the data were processed

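UMIs, reads and estimated transcripts were each deposited as a table of genes by 20 sections for 8 samples. Per the labels' protocols, RNA of single sections went through CEL-seq2 and NextSeq500 sequencing. The submitters' processing notes name Trim Galore 0.6.10, STAR 2.7.9a and GRCm38. No counting program is named. The deposited counts of UMIs were used as they stand, the deposited read counts and the deposited estimated counts of transcripts (expected counts, rounded for tests) as alternatives. Rows naming several genes (413, with 0.185% to 0.251% of a sample's UMIs) stayed in the library sizes, and none named a member.

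Sections were summed per sample and tested with edgeR 4.0.16 (R 4.3.3, TMM, filterByExpr, quasi-likelihood test, Benjamini-Hochberg over all genes tested, threshold 0.05) on all 8 samples. SE is the log2 fold change divided by the root of F. DESeq2 1.42.0 was an alternative. Both fits were also run on simulated counts in which all samples varied alike, so that run does not cover an outlying sample. Members and gene lists were chosen with earlier results of these data known. Named were the 12 most abundant members in dorsal tongue, the leading member of each subfamily with at least 10 UMIs, the 2 leading members of each other site, the 5 leading ones outside chromosome 11, every tested member that did not pass, the lowest and highest centre, the 6 leading hair genes and the 3 genes most like the members. Leaving out sections under 100000 UMIs, and both ventral tongue section tests, were added after seeing the data. Protein composition was not analysed here. Sample depth was 7830471 to 26376536 UMIs, and intervals cover counting error only.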

Additional observations from a re-analysis of the deposited data

Results flagged for a closer look

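For 8 members the change over the section numbers differed between dorsal and ventral tongue in the edgeR test of the difference itself (2 samples a site). The log2 change from sections 11 to 20 to sections 1 to 10 was larger in dorsal tongue by 1.96 for Krtap4-7, 1.8 for Krtap4-16, 2.26 for Krtap9-3, 1.86 for Krtap13-1, 2.14 for Krtap2-4, 2.17 for Krtap4-1, 1.88 for Krtap3-2 and 2.23 for Krtap1-3. Their edgeR adjusted p-values ran from 0.0103 to 0.0391, and 0.0949% of all genes were called in this direction. In each, both dorsal samples were higher and both ventral samples lower in sections 1 to 10 than in sections 11 to 20. The 8 were picked by their calls in these same samples, so this is a description and no further support. These calls did not hold without dorsal tongue replicate 1 or without either ventral tongue replicate, where the count was 0.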

How the results depend on the processing

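Numbers are counts of members called by adjusted p, with the main value in parentheses here. The share of all genes called under each alternative is not given in this section. A changed count therefore does not show whether calls changed more for members than for other genes. Leaving out 1 replicate gave 0 to 35 for dorsal tongue against the other sites (27), 0 to 23 against ventral tongue (0), 0 to 31 against buccal mucosa (4) and 2 to 32 against hard palate (28). It gave 0 to 21 for ventral tongue against buccal mucosa (0), 0 to 24 against hard palate (16) and 0 to 15 for buccal mucosa against hard palate (0). For the section tests it gave 0 to 28 in dorsal tongue (26), 0 to 11 in ventral tongue (7), 0 to 17 for their difference (8) and 0 throughout for dorsal tongue against the other 3 sites (0). For hair keratins and partners it gave 1 to 24 by site (12) and 0 to 23 by section (12). A lone sample is then assumed to vary like the other groups.

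With no filter on low counts the pairs gave 32 (dorsal against ventral tongue), 34 (dorsal tongue against buccal mucosa), 19 (ventral tongue against buccal mucosa), 25 (ventral tongue against hard palate) and 23 (buccal mucosa against hard palate), and the hair lists gave 20 by site and 21 by section. Without that filter the section differences gave 5 against the other 3 sites, 12 in ventral tongue and 20 between tongue surfaces. DESeq2 gave 21, 30, 8 and 15 for dorsal against ventral tongue, dorsal tongue against buccal mucosa, ventral tongue against buccal mucosa and buccal mucosa against hard palate, and 3 and 17 for the section differences against the other sites and between tongue surfaces. For the latter, RLE normalization gave 13, sections 1 to 5 against 16 to 20 gave 1 and sections 1 to 5 against 6 to 20 gave 5. The cause was not tested.

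Replicate numbers were not taken to pair the samples. The labels name no shared animal, and 4 of the 6 correlations between sites of same-numbered samples were below 0. The correlation was 0.545 for dorsal and ventral tongue, so a pairing of these 2 stays possible, and the others ran from -0.199 to 0.138. The replicate block is 1 term shared by all 4 sites, so it does not test a pairing of the tongue surfaces alone. With the replicate block, dorsal against ventral tongue stayed at 0, dorsal tongue against buccal mucosa went from 4 to 0, against the other sites from 27 to 23, against hard palate from 28 to 25 and ventral tongue against hard palate from 16 to 14. In reads, the members' share was 0.06001% instead of 0.106% in ventral tongue and 0.0101% instead of 0.0163% in hard palate, where estimated transcripts gave 0.0119%. The mean dorsal centre of 8.03 became 7.46 in reads and 8.85 with sections weighted by UMIs. Of 227 summary values under alternatives, 154 stayed within the limits for an unchanged result and 73 did not. Of these 73, 37 had fewer calls, 31 had more and 5 moved beyond the spread. The summary values are counts, shares and centres, which cannot be negative, so they do not show whether a direction held. Depth limits buccal mucosa replicate 2 most, where 3 UMIs are 0.383 CPM.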
